A study of Mus musculus with 10 samples.

Results

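Macrophage marker genes were examined in whole pancreas of newborn mice, as the 10 genes Cd68, Csf1r, Itgam, Lyz2, C1qa, C1qb, C1qc, Mrc1, Cd163 and Tyrobp. They were chosen by name, all 10 are among the 24062 genes of the count files, and all 10 had enough counts to be tested, as did 13882 genes in all. The libraries come from 5 WT mice and 5 KSR23 mice, all of strain C57BL/6 and all taken on postnatal day 5. KSR23 mice carry an IL-23 cassette in the ROSA26 locus behind a floxed stop signal (the R23 allele) and Cre recombinase driven by the K14 promoter, which directs IL-23 to keratinocytes. WT mice were littermate controls. Each numbered library was taken as 1 mouse, as the study describes its replicates. The comparison asks how the transcripts of resident and recruited mononuclear phagocytes stood in the pancreas of mice with this transgene. Whether the pancreas itself made IL-23 was not examined here.

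Macrophages are phagocytes that live in every tissue and are replenished to varying degree by monocytes from blood. Their survival depends on the receptor CSF1R, they digest what they take up in CD68-rich lysosomes, and they are a main source of complement C1q. In the pancreas they lie between the acini, along vessels and ducts, and in and around the islets. None of the 10 genes is strictly confined to macrophages. Itgam and Lyz2 are also expressed by neutrophils and monocytes. Tyrobp is also expressed by natural killer cells and by myeloid cells other than macrophages, and Mrc1 by some endothelial cells.

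Gene counts summed to 26830235 to 33189132 in the WT libraries and to 16715976 to 57784136 in the KSR23 libraries. KSR23 replicate 3 was the smallest and KSR23 replicate 5 the largest. Levels are given as CPM, the usual depth-scaled count, with library sizes adjusted by TMM, and each of the 10 genes had at least 118 counts in every library. Alignments that were not unique made up 49.6% to 53.7% of all alignments tallied in WT mice and 38.5% to 42.5% in KSR23 mice, and the part of this difference in the results was not tested. The tissue markers were present in every library. Acinar, ductal and islet markers, 10 in all, summed to 95234 to 108454 CPM in WT and 60029 to 75127 CPM in KSR23 libraries. Most of each sum came from the acinar gene Ctrb1, so the sum does not describe the ductal markers. Of these, Sox9 was at 49.4 to 68.4 CPM in WT and 91.6 to 141 CPM in KSR23 libraries. Cftr was at 0.335 to 1.51 CPM and 1.06 to 3.20 CPM, and Krt19 at 108 to 129 CPM and 105 to 135 CPM.

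Of the 10 macrophage marker genes, 7 were higher in KSR23 mice, 1 was lower and 2 were not called. Csf1r, Cd68, Lyz2, Itgam, Tyrobp, C1qb and C1qc rose by a log2 FC of 0.59 to 0.88. C1qa fell by 0.80 on the log2 scale, and Mrc1 and Cd163 had log2 FC of 0.03 and -0.03. A gene was called when its adjusted p from the quasi-likelihood (QL) F test of edgeR, with the Benjamini-Hochberg method applied over all 13882 genes, was under 0.05. Of all genes tested, 31.0% were called, 16.2% as higher and 14.8% as lower. For the 10 macrophage marker genes the median log2 FC was 0.61, against -0.01 for all genes tested. In whole tissue, more cells of a type and more RNA per cell cannot be told apart. When libraries were scaled by their total alone, the median of all genes moved to 0.09 and 72.6% of all calls were higher in place of 52.3%, while 7 of the 10 macrophage marker genes were still called higher and 1 lower.

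**Figure D1:**
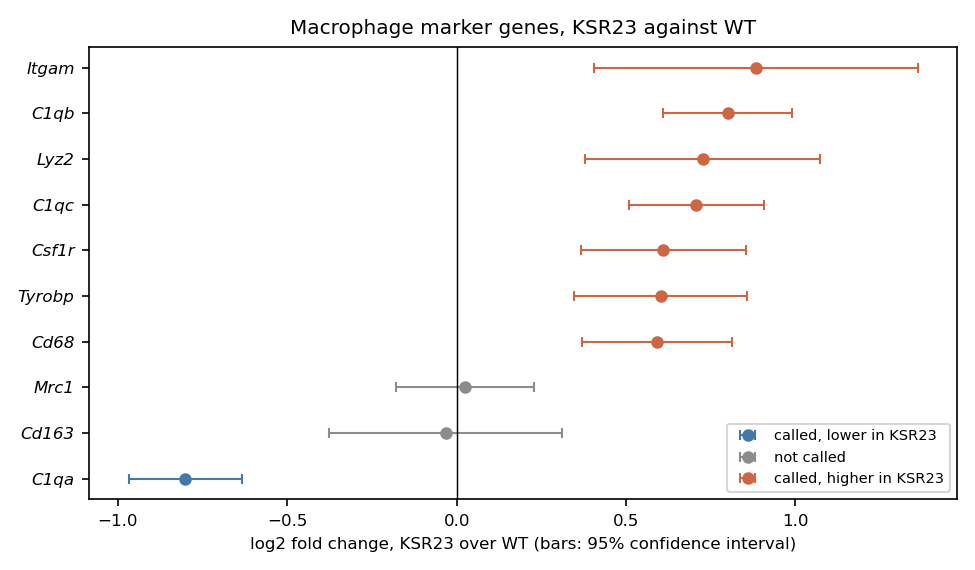
Log2 fold change of KSR23 over WT for each of the 10 macrophage marker genes, with bars for the 95% confidence interval from edgeR's QL fit and colours for the call. The intervals of 7 genes lie to the right of 0, that of C1qa lies to the left, and those of Mrc1 and Cd163 cross 0.

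Csf1r encodes the receptor for the growth factors CSF1 and IL-34 and is the gene that most closely follows the mononuclear phagocyte lineage. It stood at 51.9, 47.3, 56.4, 50.1 and 57.2 CPM in WT replicates 1 to 5. In KSR23 replicates 1 to 5 it stood at 98.0, 75.3, 89.8, 84.1 and 54.6 CPM. Replicates 1 to 4 of the KSR23 mice were above every WT mouse, whereas replicate 5 lay inside the WT range. The mean was 52.6 ± 4.22 CPM in WT and 80.4 ± 16.6 CPM in KSR23 mice (mean ± SD of 5 mice), a log2 FC of 0.61 (standard error (SE) 0.116, edgeR QL adjusted p = 0.000643). A two-sided exact permutation test of log2 CPM over all ways to divide the 10 mice into 5 and 5 gave p = 0.0238. Without KSR23 replicate 5 the log2 FC was 0.72. Csf1r spans 61100598 to 61132149 of chromosome 18 (GRCm38, plus strand), where part of its exons overlaps those of Hmgxb3 on the other strand. Whether strand was used in counting is not given in the sources used here.

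Of the CSF1R ligands, Csf1 rose and Il34 was not called. Csf1 was at 15.9 to 22.2 CPM in WT and 23.7 to 28.9 CPM in KSR23 mice, without overlap (log2 FC 0.56, edgeR QL adjusted p = 0.000241). Il34 had a log2 FC of 0.10 (edgeR QL adjusted p = 0.637). In a list of 8 genes of CSF1R ligands, related receptors and signalling, 7 were tested, 5 were higher, none was lower and 2 were not called, with a median log2 FC of 0.53. Csf2rb and Csf2ra, which encode the chains of the GM-CSF receptor, had the largest log2 FC of this list, 1.33 and 0.84. Dok2, an adaptor of the list, was at -0.13 and was not called.

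Tyrobp encodes DAP12, a small adaptor that passes signals from receptors such as TREM2 to the kinase SYK. Its level was 16.9, 13.8, 18.4, 17.2 and 16.8 CPM in the WT mice. In the KSR23 mice it was 25.4, 28.6, 30.4, 24.6 and 17.8 CPM. Here too, KSR23 replicate 5 alone reached into the WT range. The mean rose from 16.6 ± 1.72 to 25.4 ± 4.84 CPM (mean ± SD of 5 mice), a log2 FC of 0.60 (SE 0.121, edgeR QL adjusted p = 0.00106, exact permutation p = 0.0159). Of 14 listed receptors and signalling partners of Tyrobp, 10 were tested, 7 were higher, none was lower and 3 were not called, and the median log2 FC was 0.82. Trem2, a lipid-sensing receptor, rose from 1.02 to 1.84 CPM in WT mice to 2.27 to 5.26 CPM in KSR23 mice (log2 FC 1.47, edgeR QL adjusted p = 0.00013). Vav1, a signalling protein of blood cells, had a log2 FC of 1.30. The kinase genes Syk and Btk stood at the low end of the list, with log2 FC of 0.58 (called) and 0.23 (not called). Syk lost its call in 4 of 19 alternative settings (adjusted p up to 0.0776).

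Cd68 encodes a glycoprotein of lysosomes and late endosomes. The WT mice had 15.3, 14.4, 14.3, 12.8 and 13.1 CPM. The KSR23 mice had 21.2, 22.9, 23.4, 22.4 and 15.9 CPM. The groups did not overlap, although KSR23 replicate 5 was only slightly above the highest WT mouse. Among all genes tested, 10.7% had all KSR23 mice above all WT mice and 8.74% had them below, 19.4% together. Cd68 had a mean of 13.99 ± 1.02 CPM in WT and 21.1 ± 3.05 CPM in KSR23 mice (mean ± SD of 5 mice), a log2 FC of 0.59 (SE 0.105, edgeR QL adjusted p = 0.000348). The exact permutation test gave p = 0.00794, below which groups of 5 and 5 cannot go.

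Lyz2 encodes lysozyme M, an enzyme that cleaves bacterial cell walls and is stored and secreted by macrophages, monocytes and neutrophils. It was the most abundant of the 10 genes, with 126, 140, 196, 165 and 141 CPM in the WT mice. The KSR23 mice had 231, 326, 310, 263 and 142 CPM. Replicate 5 again lay within the WT values, and the other KSR23 mice lay above all of them. The log2 FC was 0.73 (SE 0.165, edgeR QL adjusted p = 0.00281, exact permutation p = 0.0238) and 0.88 without KSR23 replicate 5. Of the 75-base windows of the Lyz2 transcript, 94.0% occur in no other gene of GENCODE M21, and the rest are shared with Lyz1, its neighbouring copy on chromosome 10. Lyz1 itself had at most 1.54 CPM in any library and was not tested.

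Itgam encodes CD11b, the alpha chain that pairs with the beta2 chain of Itgb2 to form the Mac-1 integrin. The WT mice had 5.36, 4.29, 6.67, 10.4 and 8.46 CPM, the widest relative spread among the 10 genes in this group. The KSR23 mice had 14.4, 14.3, 13.2, 16.5 and 6.68 CPM. Replicate 5 was below WT replicates 4 and 5, and the other KSR23 mice were above all WT mice. The log2 FC was 0.88 (SE 0.227, edgeR QL adjusted p = 0.00686, exact permutation p = 0.0238), and 1.06 without KSR23 replicate 5. Only 28.3% of the windows of Itgam are unique to it in GENCODE M21, because a read-through gene, Gm49368, shares the remainder. Gm49368 is not analysed here, and how its reads were assigned is not given in the sources used here.

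Itgb2, the partner chain, had a mean of 12.7 CPM in WT and 15.6 CPM in KSR23 mice and was not called (log2 FC 0.29, edgeR QL adjusted p = 0.134). It was called when KSR23 replicate 5 was left out (log2 FC 0.43, edgeR QL adjusted p = 0.00756). Of 8 genes of the beta2 integrins, their ligand and their activators, Itgam among them, 6 were tested, 5 were higher, none was lower and 1 was not called. Icam1, the ligand on vessels and other cells, rose most, from 7.16 to 12.3 CPM in WT to 21.3 to 35.3 CPM in KSR23 mice (log2 FC 1.49, edgeR QL adjusted p = 7.55e-07). Itgal, the alpha chain of the lymphocyte integrin LFA-1, had a log2 FC of 1.14. Tln1, which encodes talin, rose least among those called, with a log2 FC of 0.27, and lost its call in 11 of 19 alternative settings (adjusted p up to 0.128).

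**Figure D2:**
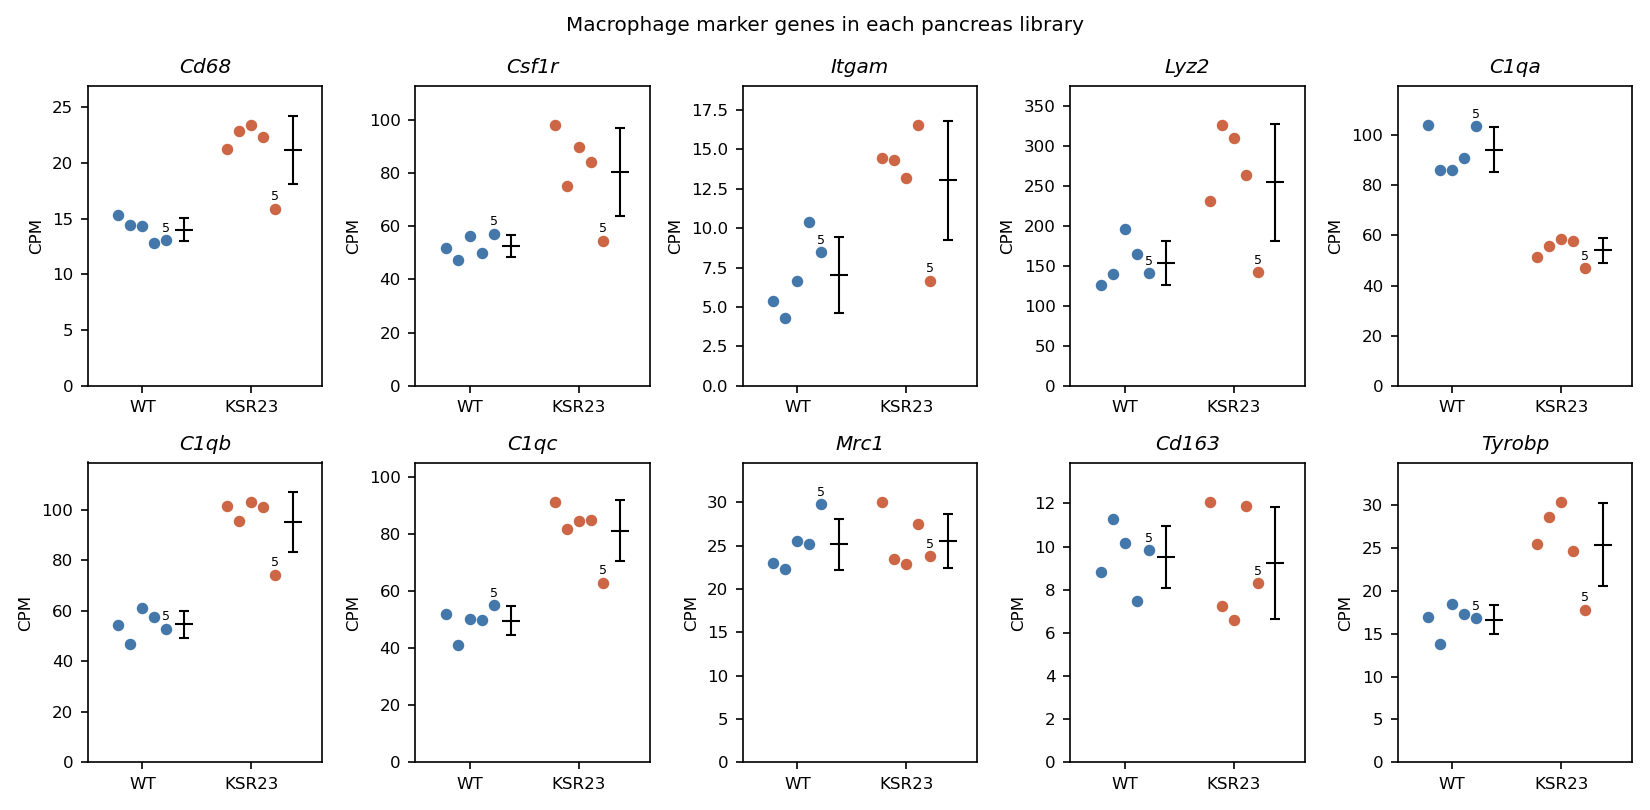
CPM of each macrophage marker gene in each library, with 1 panel per gene, points for WT and KSR23 replicates 1 to 5 from left to right, replicate 5 marked, and bars for the mean and SD of each group. KSR23 replicate 5 has the lowest point of its group in 8 of the 10 panels, and C1qa is the one gene whose KSR23 points all lie below the WT points.

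KSR23 replicate 5 was the lowest of the KSR23 mice for 8 of the 10 genes, all but Mrc1 and Cd163. Their summed level was 453 CPM in this mouse and 676 to 743 CPM in the other KSR23 mice, against 427 to 525 CPM in WT mice. Ptprc, which encodes the pan-leukocyte protein CD45, was also lowest in replicate 5 among the KSR23 mice, with 5.75 CPM against 10.01 to 12.9 CPM. It stood at 5.13 to 6.92 CPM in WT mice. With replicate 5 left out, the log2 FC of the 7 genes called higher was between 0.68 and 1.06, and all 7 were still called.

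C1qa, C1qb and C1qc encode the A, B and C chains of C1q, the recognition part of the first complement component, which is assembled from equal numbers of the 3 chains. The genes lie side by side on the minus strand of chromosome 4 (GRCm38), C1qb from 136880129 to 136886187, C1qc from 136889804 to 136893065 and C1qa from 136895917 to 136898803. No other annotated gene overlaps them, and 100% of the 75-base windows of each transcript are unique. Although neighbours, the 3 genes did not move together. C1qb and C1qc rose in the KSR23 mice and C1qa fell, each without overlap between the groups.

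In the WT mice C1qa was at 104, 86.1, 86.0, 90.9 and 103 CPM, and in the KSR23 mice at 51.4, 55.7, 58.7, 57.6 and 46.9 CPM. All KSR23 values were thus below all WT values. The mean fell from 94.1 ± 9.002 to 54.1 ± 4.89 CPM (mean ± SD of 5 mice), a log2 FC of -0.80 (SE 0.0797, edgeR QL adjusted p = 4.74e-07, exact permutation p = 0.00794). C1qb was at 54.2, 46.9, 61.2, 57.6 and 52.9 CPM in the WT mice and at 101, 95.6, 103, 101 and 74.3 CPM in the KSR23 mice. Its log2 FC was 0.80 (SE 0.0910, edgeR QL adjusted p = 2.47e-06, exact permutation p = 0.00794). The rise of C1qb and the fall of C1qa were thus of about the same size on the log2 scale. C1qc was at 51.9, 41.2, 50.3, 49.95 and 55.1 CPM in the WT mice and at 91.4, 81.7, 84.8, 85.1 and 63.0 CPM in the KSR23 mice. Its log2 FC was 0.71 (SE 0.0948, edgeR QL adjusted p = 1.74e-05, exact permutation p = 0.00794).

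Within a library, C1qa made up 47.4% ± 2.65 of the counts of the 3 chain genes in WT and 23.6% ± 1.58 in KSR23 libraries (mean ± SD of 5 mice). It lay between 43.6% and 49.5% in each WT mouse and between 21.1% and 25.5% in each KSR23 mouse, replicate 5 included. C1qb held 27.6% of these counts in WT and 41.2% in KSR23 mice, and C1qc held 25.0% and 35.2%. The ratio of C1qb to C1qc went from 1.10 ± 0.101 in WT to 1.17 ± 0.0402 in KSR23 mice, and that of C1qa to C1qb from 1.74 ± 0.237 to 0.572 ± 0.0441. These shares were computed after the calls of the 3 genes were seen and are given as a description without a test. Per kilobase of transcript, C1qa stood at 90.5 CPM in WT mice, above C1qb at 50.2 and C1qc at 41.3 CPM. In KSR23 mice the order turned, with C1qb at 87.4, C1qc at 67.5 and C1qa at 52.0 CPM per kilobase.

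**Figure D3:**
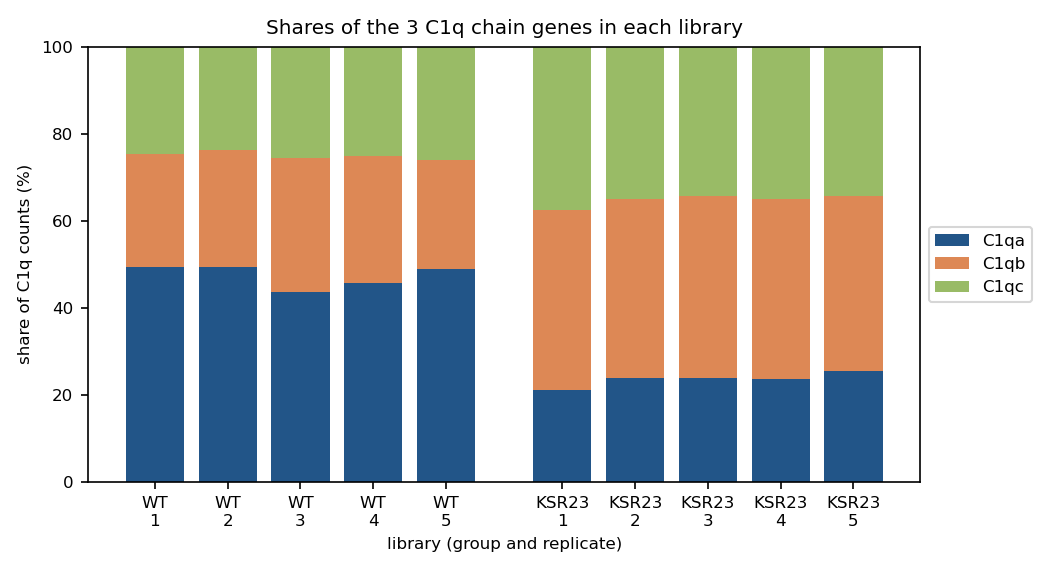
Share of C1qa, C1qb and C1qc in the counts of the 3 genes together, as 1 stacked bar per library that adds up to 100%. The C1qa part fills 43.6% to 49.5% of the bar in WT libraries and 21.1% to 25.5% in KSR23 libraries.

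C1qb, C1qc and Lyz2 rose and Mrc1 was not called. The bases just before the start of these genes are shown because they hold the match marked below. They are RefSeq sequences of build GRCm38.p6, printed 5′ to 3′ on the strand of the gene and ended no later than where the GENCODE M21 gene begins. Capitals mark the only match to AGGAAGT on either strand, which reads ACTTCCT in all of them and holds the GGAA core bound by ETS family factors such as PU.1, the product of Spi1.
C1qb, chr4:136886201-136886450, minus strand: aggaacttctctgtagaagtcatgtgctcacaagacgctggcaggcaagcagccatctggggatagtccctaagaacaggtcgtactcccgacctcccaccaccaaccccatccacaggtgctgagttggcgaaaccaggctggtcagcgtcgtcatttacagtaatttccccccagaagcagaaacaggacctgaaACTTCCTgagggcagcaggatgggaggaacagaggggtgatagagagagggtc
C1qc, chr4:136893066-136893164, minus strand: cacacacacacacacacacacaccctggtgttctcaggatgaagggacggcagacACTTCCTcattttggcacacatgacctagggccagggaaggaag
Lyz2, chr10:117282322-117282522, minus strand: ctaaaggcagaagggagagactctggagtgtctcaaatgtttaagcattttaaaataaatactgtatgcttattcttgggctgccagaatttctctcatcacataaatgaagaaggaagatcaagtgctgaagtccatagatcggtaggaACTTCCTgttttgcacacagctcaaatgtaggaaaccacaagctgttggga
Mrc1, chr2:14229164-14229391, plus strand: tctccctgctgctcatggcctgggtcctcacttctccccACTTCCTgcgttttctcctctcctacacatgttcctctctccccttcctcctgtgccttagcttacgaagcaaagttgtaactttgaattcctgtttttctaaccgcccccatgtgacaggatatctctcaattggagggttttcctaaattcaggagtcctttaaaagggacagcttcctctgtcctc

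Of the 10 genes, 7 have a promoter in the RefSeq table used here, and 4 of these hold the motif within 250 bases before the start, as do 7.69% of the 32851 promoters of the table. Csf1r, C1qa and Tyrobp are not among them. The motif was picked after the sequences had been read, so the count is a description. The 4 promoters printed are those with a match. Cd68 and Itgam, which rose, have none in this window, nor does Cd163, while Mrc1, which did not pass the test, has one.

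Most other genes of the classical complement pathway that were tested rose, as C1qb and C1qc did. Of 12 listed genes, 7 were tested, 6 were higher, none was lower and 1 was not called, with a median log2 FC of 0.53. The proteases of the C1 complex, C1ra and C1s1, had log2 FC of 0.79 and 0.53. C3, the component on which the complement pathways meet, rose from 79.2 to 99.3 CPM in WT to 204 to 380 CPM in KSR23 mice (log2 FC 1.69, edgeR QL adjusted p = 8.21e-09). C4b, which is cleaved by C1s, rose most, from 3.61 to 6.94 CPM to 86.6 to 133 CPM (log2 FC 4.503, edgeR QL adjusted p = 8.84e-13). The inhibitor gene Serping1 had a log2 FC of 0.39. These genes are also expressed by epithelial and stromal cells, and the cells that held them cannot be told from whole tissue.

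Mrc1 and Cd163 encode scavenger receptors of tissue macrophages, the first for mannose-bearing glycoproteins and the second for haemoglobin bound to haptoglobin. Mrc1 was at 23.0, 22.3, 25.5, 25.2 and 29.8 CPM in the WT mice and at 30.1, 23.4, 22.8, 27.5 and 23.8 CPM in the KSR23 mice. Cd163 was at 8.80, 11.3, 10.2, 7.45 and 9.84 CPM in the WT mice and at 12.1, 7.23, 6.60, 11.9 and 8.31 CPM in the KSR23 mice. The groups overlapped for both genes, and KSR23 replicate 5, low for the other 8, was in the middle of its group here. The log2 FC of Mrc1 was 0.03 (95% confidence interval -0.18 to 0.23, edgeR QL adjusted p = 0.871, exact permutation p = 0.865). For Cd163 it was -0.03 (-0.38 to 0.31, edgeR QL adjusted p = 0.902, exact permutation p = 0.722). Both intervals end below the log2 FC of the 7 genes called higher. The sign of Mrc1 turned in 4 of 19 alternative settings and that of Cd163 in 6, and neither was called in any.

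Among 9 genes of haptoglobin, haem and iron handling around CD163, 6 were tested, 3 were higher, 1 was lower and 2 were not called. Hp, which encodes haptoglobin, had the largest log2 FC of these, 1.26, and Slc11a1, a metal transporter of phagosomes, had 0.74. The iron exporter gene Slc40a1 fell from 61.7 to 71.7 CPM in WT mice to 44.0 to 59.5 CPM in KSR23 mice (log2 FC -0.35, edgeR QL adjusted p = 0.00461). With libraries scaled by their total alone, this fall lost its call (adjusted p = 0.0767). Hmox1, which encodes the haem-degrading enzyme, had a log2 FC of -0.17 and was not called.

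The ratio of each gene to Csf1r, and to Ptprc, within a library does not depend on how the libraries are scaled. Of 19 such log2 ratios, 4 differed between the groups (two-sided exact permutation test, adjusted p = 0.0377 for each over the 19 ratios, with p = 0.00794 before adjustment, the smallest p that this design allows). Relative to Csf1r, C1qa was lower in KSR23 mice by a difference of -1.39 and Mrc1 by -0.57. Relative to Ptprc, the difference was -1.46 for C1qa and -0.74 for Cd163. The log2 ratio of Cd163 to Ptprc lay between 0.537 and 0.705 in WT mice and between -0.966 and 0.529 in KSR23 mice, so the groups almost met. That of C1qa to Ptprc lay between 3.63 and 4.24 in WT mice and between 2.18 and 3.03 in KSR23 mice. For Cd163 against Csf1r and Mrc1 against Ptprc the differences were -0.66 and -0.64 (exact permutation test, adjusted p = 0.0603 and 0.0754), which did not pass. When a WT mouse was left out, no ratio passed, with adjusted p-values from 0.0754 for C1qa. The smallest exact p for 4 against 5 mice is also 0.00794. Whether it passes over the 19 ratios depends on how many ratios reach it together. The groups did not overlap in either ratio of C1qa, so this loss cannot show that C1qa rests on a single mouse. The differences of C1qa stayed between -1.60 and -1.29 over all mice left out.

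The log2 ratios of Cd68 and Tyrobp to Csf1r differed between the groups by -0.003 and 0.004 (exact permutation test, adjusted p = 0.976 for both). The ratio of C1qb to Csf1r rose by 0.21 on the log2 scale and that of C1qc by 0.12, and neither passed (exact permutation test, adjusted p = 0.172 and 0.377). Itgam was 0.31 and Lyz2 0.10 higher relative to Csf1r (exact permutation test, adjusted p = 0.570 and 0.808). The log2 ratio of Mrc1 to Csf1r lay between -1.17 and -0.94 in WT mice and between -1.98 and -1.20 in KSR23 mice, without overlap.

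**Figure D4:**
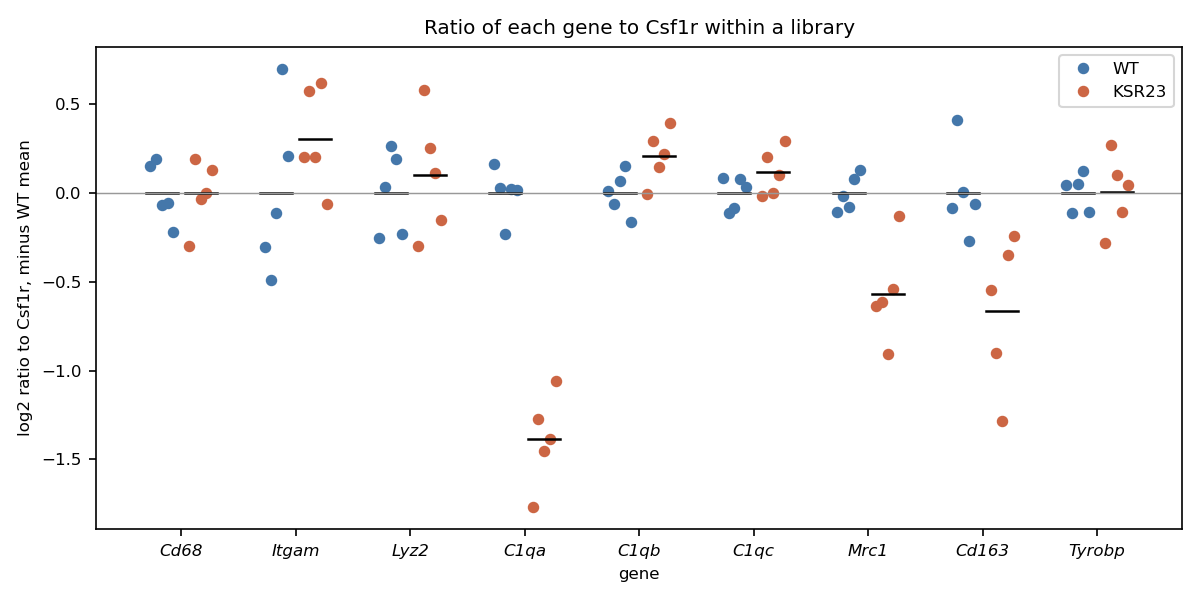
Log2 ratio of counts of each gene to Csf1r in the same library, shown as the difference from the WT mean of that gene, with points for WT and KSR23 libraries and lines for group means. C1qa lies well below 0 in every KSR23 library, Mrc1 and Cd163 lie below 0 as well, and Cd68 and Tyrobp are centred near 0.

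Rising and falling genes were also found among 25 other genes of macrophages, of which 24 were tested. Of these, 12 were higher, 5 were lower and 7 were not called, and the median log2 FC was 0.44. Cd14, the co-receptor for bacterial lipopolysaccharide, rose most, from 8.23 to 12.0 CPM in WT to 28.6 to 42.5 CPM in KSR23 mice (log2 FC 1.85, edgeR QL adjusted p = 4.46e-09). Fcgr1, the high-affinity receptor for immunoglobulin G, and Cx3cr1, the fractalkine receptor, had log2 FC of 1.35 and 1.31, and like Cd14 and Trem2, which is in this list too, they did not overlap between the groups. Adgre1, which encodes F4/80 and is listed under its older symbol Emr1 in the count files, had a log2 FC of 0.55 (edgeR QL adjusted p = 0.0054), close to that of Csf1r and Cd68. KSR23 replicate 5 had its lowest level among the KSR23 mice, 15.6 CPM against 23.4 to 27.8 CPM, and WT mice had 13.1 to 19.1 CPM. Spi1, which encodes the transcription factor PU.1, was at 4.07 to 5.78 CPM in WT and 6.55 to 11.5 CPM in KSR23 mice (log2 FC 0.91, edgeR QL adjusted p = 0.000155).

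The genes of this list that fell were Pf4, Cbr2, Lyve1, F13a1 and Maf, most of which are known as genes of long-lived tissue macrophages. Pf4 was at 29.5 to 38.4 CPM in WT and 13.3 to 21.6 CPM in KSR23 mice (log2 FC -0.83, edgeR QL adjusted p = 2.26e-05). Cbr2, Lyve1 and F13a1 had log2 FC of -0.78, -0.59 and -0.50 and did not overlap between the groups either. Maf was at -0.36 (edgeR QL adjusted p = 0.0479) and overlapped. It lost its call in 10 of 19 alternative settings, with an adjusted p of up to 0.176. Folr2 and Timd4, which are also used to mark resident macrophages, were not called, with log2 FC of -0.26 and 0.20. Pf4 is shared with platelets and their precursors, and Lyve1 with lymphatic endothelium. Of 7 endothelial genes tested, Lyve1 among them, 3 were lower, 1 was higher and 3 were not called, and the list summed to 184 to 203 CPM in WT and 163 to 183 CPM in KSR23 mice. The part of vessels in the fall of Lyve1 was not tested.

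**Figure D5:**
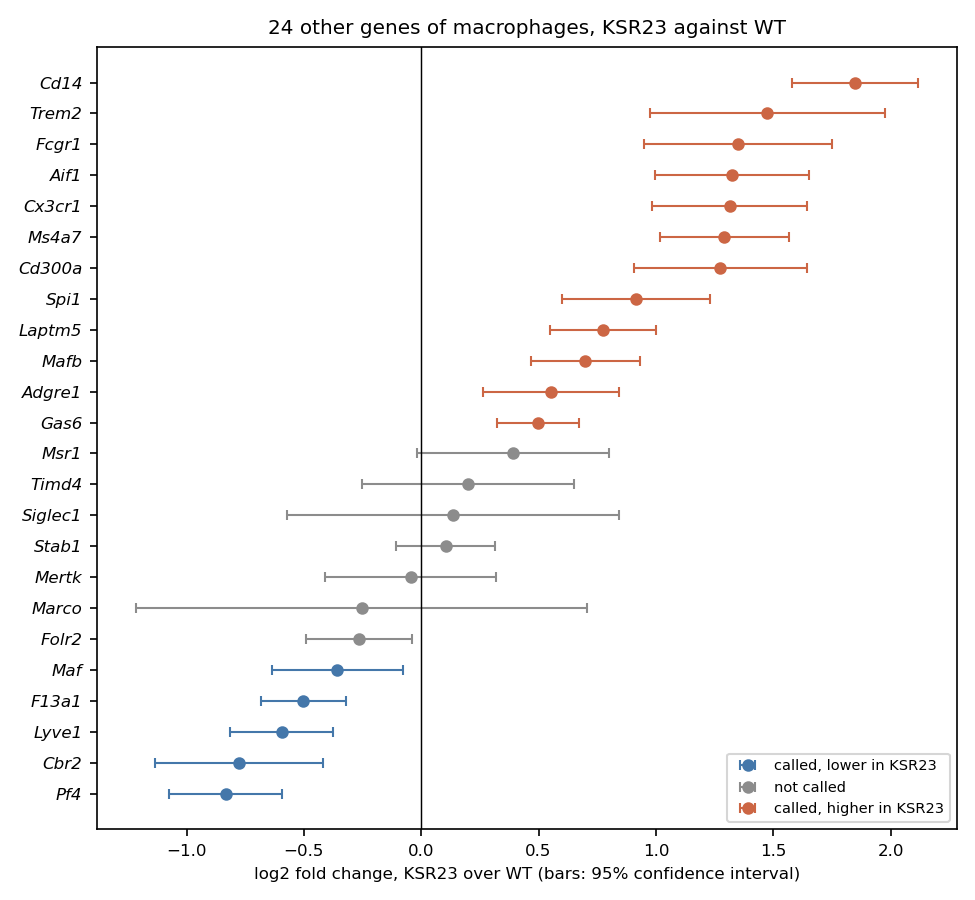
Log2 fold change of KSR23 over WT for 24 other genes of macrophages, sorted by size, with bars for the 95% confidence interval and colours for the call. Cd14 stands at the top with 1.85, 12 genes are called higher, and Pf4, Cbr2, Lyve1, F13a1 and Maf are called lower.

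Of 16 genes of macrophage activation, 7 had enough counts to be tested. Ptgs2, which encodes cyclooxygenase 2, was higher (log2 FC 1.49, edgeR QL adjusted p = 0.00682), and the other 6 were not called. Nos2, which encodes the inducible nitric oxide synthase, had a log2 FC of -0.57, and Chil3, which encodes a chitinase-like protein of monocytes and macrophages, had 1.51. The value of Chil3 was set by KSR23 replicate 3, which had 14.2 CPM against 0.741 to 2.71 CPM in the other KSR23 mice. Il1b and Tnf had too few counts in some WT libraries for the test. Il1b was at 0.03 to 0.53 CPM in WT and 1.08 to 1.96 CPM in KSR23 mice, and Tnf at 0 to 0.32 CPM and 0.38 to 0.92 CPM. The groups did not overlap for either gene, and both were singled out for this after their values were seen, so no test is given. Of the other activation genes that were not tested, Ccl3 did not overlap either, at 0.0351 to 0.224 CPM in WT and 0.232 to 0.615 CPM in KSR23 mice, and Retnla, Il6, Il10, Il12b, Cd80 and Ccl4 overlapped.

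Most neutrophil genes tested rose, as most of the macrophage marker genes did, and with a larger median log2 FC. Of 11 listed, 9 were tested, 7 were higher, none was lower and 2 were not called, with a median log2 FC of 2.37. Their summed level was 14.1 to 45.1 CPM in WT and 48.8 to 444 CPM in KSR23 mice, and no gene measured was at 0 in all libraries. KSR23 replicate 3 held the 444 CPM, and the other KSR23 mice held up to 107 CPM. S100a8 and S100a9 had log2 FC of 2.38 and 2.48, which became 1.47 and 1.54 without replicate 3, and for Ltf 2.71 became 1.59. All 3 were still called. Of the 9 tested, 5 had all KSR23 mice above all WT mice, as did 10.7% of all genes tested. Camp, which holds the median of the list, was called higher, but its groups overlapped. It was at 0.820 to 2.75 CPM in WT and 2.37 to 34.9 CPM in KSR23 mice, with the highest value in replicate 3. Ngp was called higher and overlapped too. Csf3r, the receptor for the neutrophil growth factor G-CSF, had a log2 FC of 2.61. Ly6g is not analysed here. Without replicate 3, the library richest in neutrophil genes, Itgam had a log2 FC of 0.88 and Lyz2 of 0.65. With KSR23 replicates 3 and 5 both left out, these values were 1.09 and 0.83.

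The lists for other cell types are given for comparison. Of 5 monocyte genes, 3 were higher and 2 were not called, with a median log2 FC of 1.31 and sums of 13.6 to 16.7 CPM in WT and 19.2 to 50.7 CPM in KSR23 mice. Ccr2, the receptor that draws monocytes from blood, rose by 1.03 on the log2 scale. Of 8 dendritic cell genes, 1 was tested and it was not called, and the sums were 9.67 to 14.6 CPM and 10.5 to 12.997 CPM. Most of these sums came from the gene tested, Zbtb46, at 8.34 to 13.5 CPM in WT and 8.56 to 11.3 CPM in KSR23 mice. Itgax, too low to be tested, was at 0 to 0.258 CPM in WT and 0.415 to 0.857 CPM in KSR23 mice, without overlap. The other dendritic cell genes that were not tested overlapped. Of 6 lymphocyte genes tested, 1 was higher, 1 was lower and 4 were not called, with sums of 7.94 to 9.93 CPM and 6.10 to 8.65 CPM. The genes of the T cell receptor complex did not move together. Cd3e fell from 3.06 to 4.81 CPM in WT to 0.830 to 2.01 CPM in KSR23 mice, without overlap (log2 FC -1.50, edgeR QL adjusted p = 5.77e-05), a larger change than that of any of the 10 macrophage marker genes. Cd3g rose by 0.87 on the log2 scale (edgeR QL adjusted p = 0.0321), a call it lost in 12 of 19 alternative settings (adjusted p up to 0.133). Cd3d, too low to be tested, was at 0.0687 to 0.176 CPM and 0.324 to 0.615 CPM, also without overlap. None of 5 mast cell genes was called, and their sums were 54.7 to 62.9 CPM in WT and 40.6 to 70.3 CPM in KSR23 mice. Their adjusted p-values from edgeR's QL test were 0.116 to 0.804. Of 6 genes of stromal cells, 1 was higher and 5 were not called, with sums of 7942 to 10013 CPM and 7293 to 9508 CPM. The part of neutrophils and monocytes in the rise of Itgam, Lyz2 and Tyrobp was not tested.

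Genes with a pattern like that of Csf1r were ranked by the root mean square difference of log2 CPM, each gene centred on its own mean, over the 10 libraries. The nearest 5 genes outside the set were Tle3, Mfsd12, Fcer1g, Tuft1 and Slc11a1, at distances of 0.103, 0.104, 0.123, 0.126 and 0.127 on the log2 scale. Fcer1g, which encodes the signalling chain of Fc receptors, and Slc11a1 are genes of myeloid cells, while Tle3, a corepressor, and Tuft1 are expressed widely. Among the macrophage marker genes, C1qc ranked 3 of all genes, Tyrobp 12, C1qb 23 and Cd68 24. Lyz2 ranked 848, Mrc1 2947, Itgam 4544, Cd163 8063 and C1qa 12912. The same ranking for C1qa, added later, put Vps8, Hadh, Mfap5, Pycard and Tcea3 nearest, at distances of 0.0903 to 0.120. The nearest of the macrophage marker genes to C1qa was Mrc1, which ranked 6172. Both orders are descriptions over 10 libraries that include the group difference itself.

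Per kilobase of transcript, Lyz2 had the highest level of the 10 genes in both groups, 117 CPM per kilobase in WT and 193 in KSR23 mice. C1qa, C1qb and C1qc followed, and then Tyrobp with 27.8 and 42.5 CPM per kilobase. Cd68 and Csf1r stood close together, at 11.4 and 11.2 in WT and 17.2 and 17.1 in KSR23 mice, and differed by less than their SDs. Mrc1 was at 4.68 and 4.75 CPM per kilobase. Cd163 and Itgam were lowest, at 2.14 and 1.503 in WT mice, and their order turned in KSR23 mice, at 2.07 and 2.78. The whole transcript was taken as the length of Itgam, although only 28.3% of its windows are unique, so its place in this order depends on how the shared reads were assigned.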

How the data were processed

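Pancreas RNA (100 pg) was oligo-dT primed and amplified with 15 cycles of PCR, and the tagmented libraries with 12 more. No molecular identifiers are mentioned, so PCR copies count as reads. The authors aligned single-end 75-base reads to mm10 with TopHat2 2.1.0 and deposited raw counts per gene from HTSeq 0.6.1p1 (strict intersection, unique alignments), with no normalization. The submitters' processing notes also name FastQC and edgeR 3.18.1. Annotation and strand setting are not given in the sources used here.

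The filter kept 13882 genes with 5 or more counts in each library, and the 5 tallies of reads given to no gene were set aside. Groups were compared with edgeR 4.0.16 in R 4.3.3 (TMM, QL F test). An SE is the size of the log2 FC divided by the square root of F. Log2 CPM used a prior count of 2, and ratios had 0.5 added to each count. Permutation tests were two-sided and enumerated every split of the mice. Adgre1 was matched to Emr1 by RefSeq synonyms. Gene models are those of GENCODE M21 (assembly GRCm38, known as mm10). Windows of 75 bases were compared among all annotated transcripts by exact match.

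The 10 genes, the other lists and the tests were chosen with earlier results of these data known. The genes named were these 10, the 2 largest and 2 smallest log2 FC of a list, and a few that bear on the 10. One gene that this rule names is not reported here. C1ra, C1s1, Spi1, Cx3cr1, Fcgr1, Lyve1, F13a1, Maf, Folr2, Timd4, Cd3d, Cd3e, Cd3g, Itgax, Il1b, Tnf and the other untested activation genes were chosen after their values were seen. So were Camp, Ngp, Ctrb1 and Krt19. Libraries of a group differed by more than sampling noise (chi-square per degree of freedom of at least 11.4). In a simulation with 196 changed genes among 13750, the test called 96.4% of them (92.9% at 2-fold, 100% at 4-fold), and 7.35% of its calls were false. The 10 macrophage marker genes all changed by less than 2-fold in the main fit, a size that was not simulated. In the data 4299 genes were called, far more than were changed in the simulation, so these rates may not hold for the calls given here. Other settings tried were the likelihood ratio test, DESeq2 1.42.0, other scalings and filters, a replicate block, and each mouse left out. Leaving out KSR23 replicates 3 and 5 together was chosen after seeing the data.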

Additional observations from a re-analysis of the deposited data

Results flagged for a closer look

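Of 194 groups of 5 values examined, 16 held 1 sample far from the rest, where chance gives about 9.7. KSR23 replicate 5 was low, with 15.88 CPM of Cd68 against 21.2 to 23.4 CPM in the other KSR23 mice, 74.3 CPM of C1qb against 95.6 to 103 CPM, 13.31 CPM of Pf4 against 19.5 to 21.6 CPM, and 453.5 CPM summed over the 10 macrophage marker genes against 676 to 743 CPM. KSR23 replicate 3 was high, with 76.41 CPM of S100a8 against 9.90 to 17.6 CPM, 73.5 CPM of S100a9 against 7.76 to 16.7 CPM, 78.99 CPM of Ltf against 5.96 to 21.3 CPM, 11.47 CPM of Hp against 4.36 to 6.12 CPM and 14.21 CPM of Chil3 against 0.741 to 2.71 CPM. Its sums were 444.3 CPM for the neutrophil genes against 48.8 to 107 CPM, 50.74 CPM for the monocyte genes against 19.2 to 24.03 CPM and 36.53 CPM for the activation genes against 22.6 to 26.3 CPM. Among WT mice, replicate 5 had 22.24 CPM of Csf1 against 15.9 to 17.2 CPM, replicate 3 had 6.076 CPM of Hp against 1.19 to 2.56 CPM and 2.459 CPM of Fcgr1 against 1.45 to 1.58 CPM, and replicate 4 had 14.97 CPM of C1ra against 18.8 to 19.6 CPM.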

How the results depend on the processing

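In all 19 alternative settings, 8 of the 10 macrophage marker genes were called, 7 higher and 1 lower. Genes called in all ranged from 3497 (without WT replicate 4) to 4652 (DESeq2), and other macrophage genes from 12 to 14 higher and 4 to 6 lower. With the replicate block, 3749 genes and 8 macrophage marker genes were called. Correlations of same-numbered deviations were -0.111 to 0.0661 and 1 of 10 libraries correlated best with its own number, so no shared deviation by number was seen. Whether same-numbered mice shared a litter or batch cannot be told from this. The sign of Cd163 turned with library total alone (0.0595) and without KSR23 replicates 3 and 5 together (0.128), and that of Chil3 in the latter (-0.48). With each mouse left out, log2 FC ranged from -0.153 to 0.0568 for Cd163, -0.0465 to 0.0845 for Mrc1 and -0.193 to 0.0012 for Dok2. The number of ratios that passed, 4, ranged from 0 (each WT mouse left out) to 6 (KSR23 replicate 5 left out). This number depends on how many ratios reach the smallest exact p together. Over mice left out, log2 ratios that turned sign ranged from -0.0582 to 0.0704 for Cd68 to Csf1r, -0.0206 to 0.199 for Lyz2 to Csf1r, -0.0617 to 0.0761 for Tyrobp to Csf1r, -0.0558 to 0.12 for Lyz2 to Ptprc, -0.0679 to 0.126 for C1qc to Ptprc and -0.179 to 0.00843 for Tyrobp to Ptprc. The cause of these turns was not tested. Of the genes nearest to Csf1r, Mfsd12 lost its call in 7 settings (edgeR QL adjusted p up to 0.092) and Tle3 in 1 (0.0559). A call was gained by Chil3 in 4 settings, by Folr2 and Itgb2 in 2 each and by Nos2 and Timd4 in 1 each. Genes under 5 counts in a library were not tested at this depth.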
